A study of Mus musculus with 2 samples.

Results

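The accessible chromatin around 8 receptor genes of mouse mast cells was described: Kit, the IL-3 receptor genes Il3ra, Csf2rb and Csf2rb2, the IL-33 receptor genes Il1rl1 and Il1rap, and the IL-4 receptor genes Il4ra and Il2rg. The genes were chosen by name, with earlier results of these data known. A region belonged to a gene when that gene's interval was the nearest of 21631 protein-coding intervals and lay within 100 kb of it, a distance of 0 meaning that they overlapped. By this rule the 8 genes held 29 of 23364 regions, which comprised 22 of 17170 wild-type peaks and 24 of 19684 knockout peaks. A region is the union of peaks that share at least 1 bp. It is called shared where both lists held a peak in it, and wild-type-only or knockout-only where 1 list did.

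The data were ATAC-seq peak lists, in which the Tn5 transposase marks DNA that is open enough to be cut, from bone marrow-derived mast cells (BMMCs). The 1 wild-type and the 1 DNMT3A-KO culture came from female littermates given as 3 weeks old in the design and 3 to 4 weeks old in the growth protocol. Both were grown for 4 weeks with recombinant IL-3 and received no treatment, and the protocol puts over 95% of the cells as positive for Kit and the IgE receptor. The knockout is named only as a deletion of DNMT3A; the allele, any Cre driver and the number of animals per culture are missing from the sources used here.

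Kit is the receptor tyrosine kinase for stem cell factor, on which mast cell survival depends. IL-3 binds a specific alpha chain, encoded by Il3ra, which signals with a beta chain; mice have the common beta chain Csf2rb, shared with the IL-5 and GM-CSF receptors, and the IL-3-specific beta chain Csf2rb2, a close paralogue next to it. IL-33 is sensed by Il1rl1 (ST2) with the accessory protein Il1rap, which also serves the IL-1 receptor, and IL-4 by Il4ra with the common gamma chain Il2rg. Mature mast cells carry Kit and ST2 at high levels, and IL-3 is the growth factor of these cultures.

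Each genotype had 1 library, so how far cultures of one genotype vary is unknown, and no test was made. The depth behind a call is given by its summit pileup, the number of overlapping fragments at the peak's highest point, whose median was 9 in both lists. Reads were single, so a fragment is here the stretch counted for a read, whose length no source used here gives. Over all shared regions the knockout pileup was a median of 1.09 times the wild-type pileup, and ratios called scaled below were divided by this value. Dnmt3a itself, the targeted gene, had 7 regions (4 shared, 2 in wild type alone, 1 in knockout alone), and its strongest unshared region (mm10 chromosome 12, 3897094 to 3897359) had a wild-type pileup of 21 and no knockout peak. Among 10 mast cell markers, 9 were represented in the wild-type peaks and 10 in the knockout peaks, Hdc being the exception. Of 16 neutrophil, macrophage, T cell and B cell markers 5 and 6 were, and none of Elane, Mpo, Ly6g, Cd68, Cd4, Cd8a and Cd79a was. Over all 21631 protein-coding genes 10025 had no region in either list.

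The start sites differed in which list held a peak over them. RefSeq gives start windows, from 250 bases before to 50 bases after an annotated transcription start, for 7 of the 8 genes (build GRCm38.p6, the assembly that mm10 names), Csf2rb being without one. A peak lay over a start window in both lists for Kit, Il3ra and Il1rap, in the wild-type list alone for Csf2rb2 and Il1rl1, in the knockout list alone for Il4ra, and in neither for Il2rg. Among 17274 protein-coding genes with such a window the corresponding shares were 27.8% for both lists, 3.42% for the wild-type list alone and 5.42% for the knockout list alone. The 6 windows with a peak are printed below, 5′ to 3′ on the gene's own strand, because they show where each peak sat against the start; capitals mark the bases under a peak of either list.
Kit, chr5:75574737-75575036, plus strand: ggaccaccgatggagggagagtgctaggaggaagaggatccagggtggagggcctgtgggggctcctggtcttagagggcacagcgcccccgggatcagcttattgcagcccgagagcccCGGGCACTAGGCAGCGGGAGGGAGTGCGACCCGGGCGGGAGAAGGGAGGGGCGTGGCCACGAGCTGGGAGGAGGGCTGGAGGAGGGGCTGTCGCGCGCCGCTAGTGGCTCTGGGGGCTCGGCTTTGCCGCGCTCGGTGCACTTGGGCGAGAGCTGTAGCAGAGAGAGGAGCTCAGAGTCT
Il3ra, chr14:14346245-14346544, plus strand: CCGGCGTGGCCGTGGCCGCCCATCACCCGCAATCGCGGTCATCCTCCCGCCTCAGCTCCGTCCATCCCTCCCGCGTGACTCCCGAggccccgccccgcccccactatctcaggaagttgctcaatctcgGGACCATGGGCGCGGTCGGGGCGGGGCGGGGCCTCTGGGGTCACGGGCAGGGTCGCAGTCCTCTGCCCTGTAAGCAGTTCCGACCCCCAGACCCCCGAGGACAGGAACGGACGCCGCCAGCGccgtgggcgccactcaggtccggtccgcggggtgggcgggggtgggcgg
Il1rap, chr16:26581455-26581754, plus strand: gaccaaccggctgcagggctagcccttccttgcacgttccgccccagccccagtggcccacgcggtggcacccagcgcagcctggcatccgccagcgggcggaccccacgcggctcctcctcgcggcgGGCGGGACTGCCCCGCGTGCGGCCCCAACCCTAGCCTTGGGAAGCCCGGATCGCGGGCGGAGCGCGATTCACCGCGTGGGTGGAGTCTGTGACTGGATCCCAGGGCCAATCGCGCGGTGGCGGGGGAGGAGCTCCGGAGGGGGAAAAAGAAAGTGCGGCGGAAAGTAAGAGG
Il4ra, chr7:125552021-125552320, plus strand: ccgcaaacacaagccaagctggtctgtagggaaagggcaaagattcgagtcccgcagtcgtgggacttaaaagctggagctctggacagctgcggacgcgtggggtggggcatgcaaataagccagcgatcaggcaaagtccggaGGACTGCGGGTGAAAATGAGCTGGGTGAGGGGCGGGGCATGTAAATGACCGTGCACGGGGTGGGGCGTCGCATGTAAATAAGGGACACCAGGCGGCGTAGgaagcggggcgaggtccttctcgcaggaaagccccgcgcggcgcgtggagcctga
Csf2rb2, chr15:78305672-78305971, minus strand: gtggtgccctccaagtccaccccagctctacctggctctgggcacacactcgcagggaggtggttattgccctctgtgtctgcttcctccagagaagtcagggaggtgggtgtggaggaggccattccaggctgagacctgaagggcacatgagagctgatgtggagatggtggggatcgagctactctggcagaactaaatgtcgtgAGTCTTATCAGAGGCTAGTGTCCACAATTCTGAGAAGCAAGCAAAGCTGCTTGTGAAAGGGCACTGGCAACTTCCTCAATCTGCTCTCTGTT
Il1rl1, chr1:40429320-40429619, plus strand: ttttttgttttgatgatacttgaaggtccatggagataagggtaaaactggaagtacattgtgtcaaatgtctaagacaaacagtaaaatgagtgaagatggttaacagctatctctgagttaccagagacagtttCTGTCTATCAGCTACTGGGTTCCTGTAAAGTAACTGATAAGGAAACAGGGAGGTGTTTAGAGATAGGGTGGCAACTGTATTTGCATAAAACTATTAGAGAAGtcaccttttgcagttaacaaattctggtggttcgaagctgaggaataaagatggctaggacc

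At Kit the wild-type peak covered 168 and the knockout peak 180 bases of the printed window, the first of its 2 windows, whose starts are 4 bases apart; 168 bases lay under both. At Il1rap 169 and 146 bases were covered, 143 of them by both. At Il3ra the wild-type list covered 26 bases at the far 5′ end, while the knockout list covered 207, in 2 stretches that the capitals show. The start-proximal peaks covered 100 bases at Il4ra (knockout), 92 at Csf2rb2 (wild type) and 102 at Il1rl1 (wild type).

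The windows differed in CG content. The number of CG dinucleotides, the sites that DNA methyltransferases act on, was 20 in the printed Kit window, 35 at Il3ra, 33 at Il1rap and 25 at Il4ra. It was 3 at Csf2rb2, 1 at Il1rl1 and 3 at Il2rg, against a median of 13 over 21045 windows of protein-coding genes. The Il3ra count exceeded that of 90.8% of these windows and the Il1rl1 count that of 4.46%. The windows of the 2 genes with a wild-type-only peak over the start were thus CG-poor, and that of the gene with a knockout-only peak was CG-rich, a description of 3 genes.

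Short motifs of mast cell factors were sought on both strands. For GATA factors the letters were AGATAA or, as a second form, TGATAA. For the E-box of MITF they were CACGTG or, as a second form, CATGTG. For ETS factors they were GGAAGT, and for RUNX factors the letters searched were TGTGGT. For STAT5 they were TTCNNNGAA, and for AP-1 the letters searched were TGANTCA. No 2 of the matches found below overlapped. Csf2rb2 held 4 of the 6 kinds: TGATAA on the opposite strand beginning 38 bases before the start, the STAT5 match TTCTGAGAA beginning 15 bases before it and GGAAGT on the opposite strand 27 bases after it, all under the wild-type peak, and CATGTG outside it. Il1rl1 held TGATAA under the wild-type peak, 80 bases before the start, and AGATAA and GGAAGT outside it. Il3ra held GGAAGT between its covered stretches, and the Kit, Il1rap and Il4ra windows held none of these letters. Over the 21045 windows 15.8% held a GATA match, 18.9% an E-box, 25.0% the ETS, 14.7% the RUNX, 7.76% the STAT5 and 7.04% the AP-1 motif. A match is a string of letters in a window and not a site.

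The 8 genes as a set were divided between the lists much as the whole genome was. Of their 29 regions 16 were shared, or 55.2% (exact Clopper-Pearson interval 35.7 to 73.6, counting error only), against 55.1% of all 23364 regions. They had 6 wild-type-only regions, where 16.9% of all regions were wild-type-only, and 7 knockout-only regions, where 28.0% were knockout-only. Of the 13 unshared regions 53.8% were knockout-only (interval 25.1 to 80.8), against 62.3% over all unshared regions. The unshared regions were spread unevenly by gene: Kit, Il3ra and Il4ra had 1 knockout-only region each and no wild-type-only one, both IL-33 receptor genes had wild-type-only regions alone (2 and 1) when any overlap counted as shared, and both beta chain genes had both kinds.

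**Figure D1:**
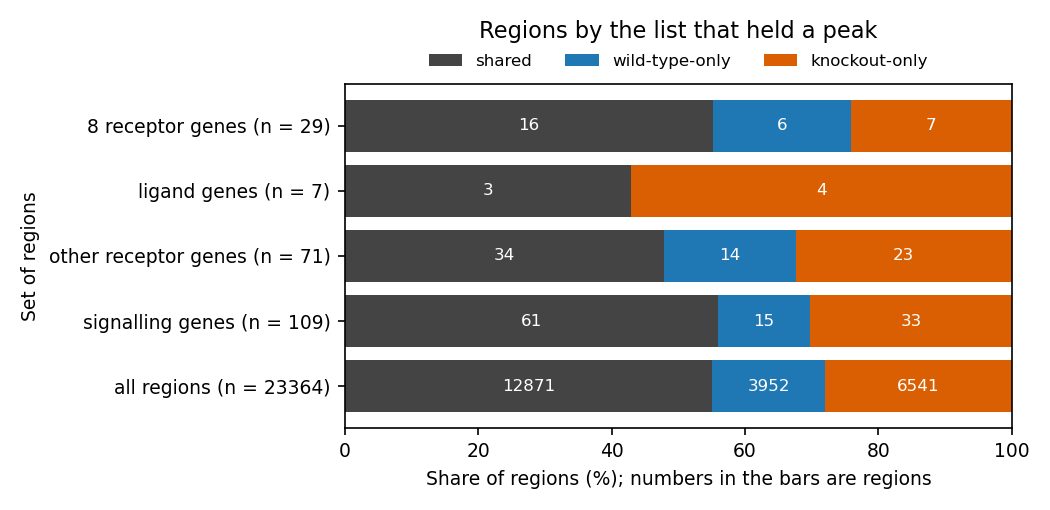
Share of regions (horizontal axis, %) that were shared, wild-type-only or knockout-only, for the 8 receptor genes, 3 lists of related genes and all regions; the numbers in the bars are regions. The bar of the 8 receptor genes (16, 6 and 7 regions) is close to that of all regions (12871, 3952 and 6541).

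**Figure D2:**
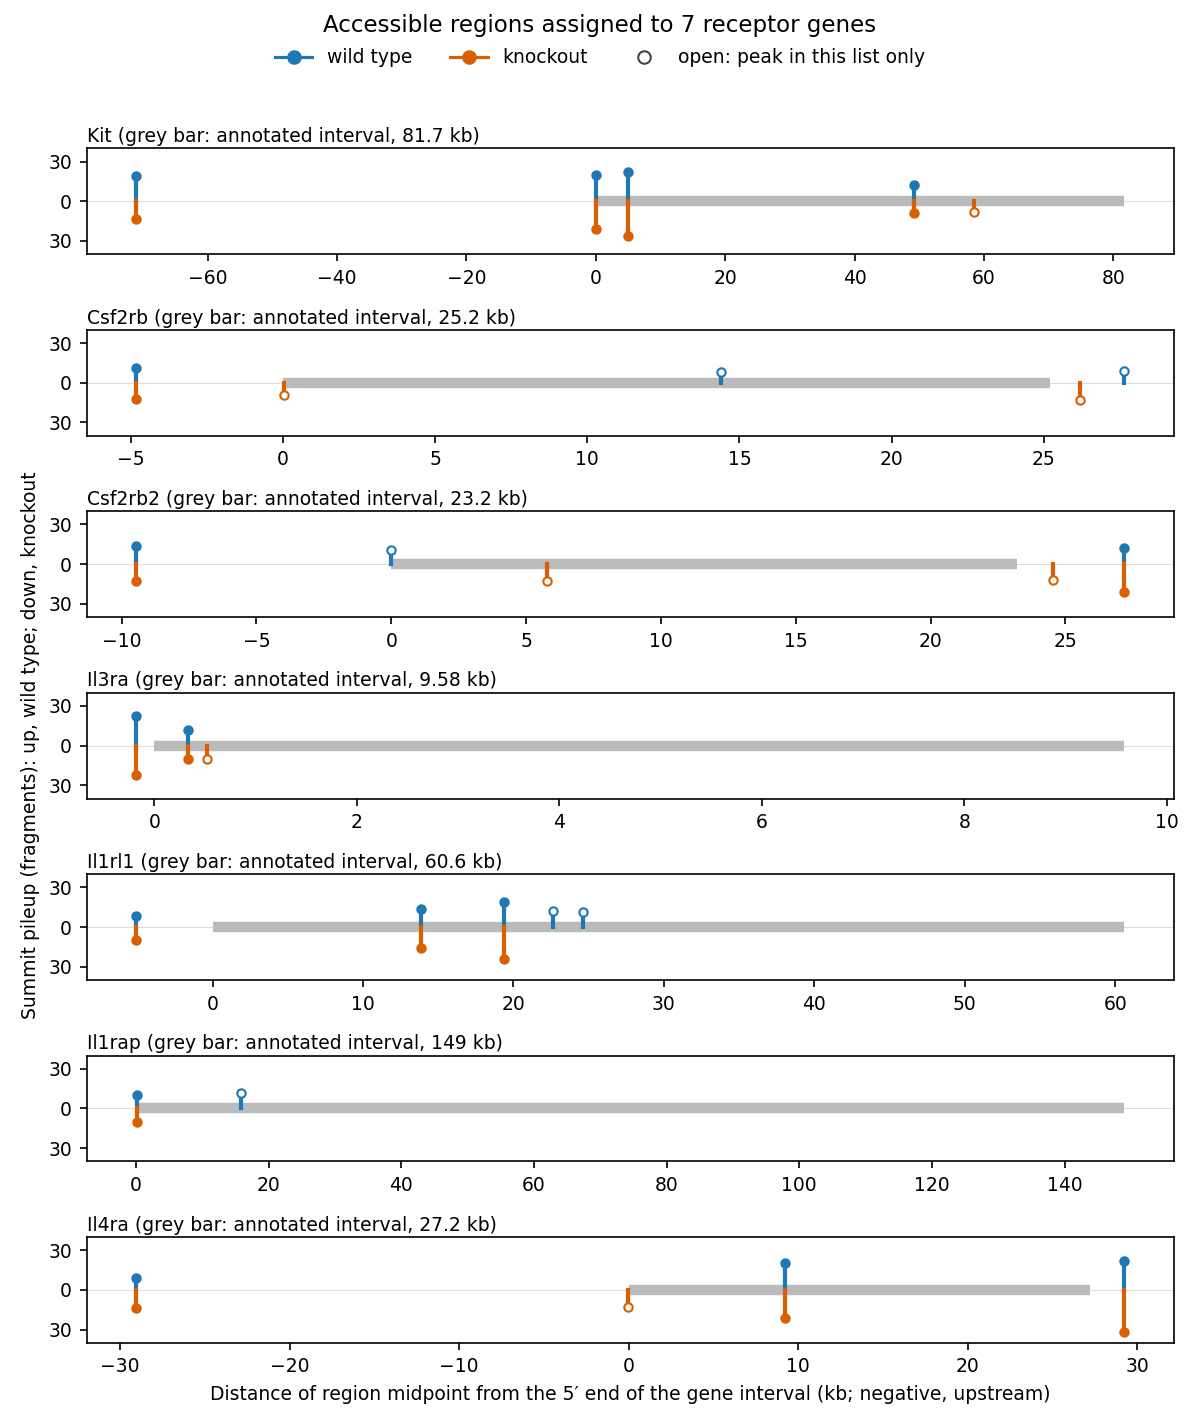
Regions of the 7 receptor genes that had any, by the distance of their midpoint from the 5′ end of the gene interval (horizontal axis, kb, a different scale per gene; the lower end for Csf2rb), with the summit pileup in fragments drawn upward for wild type and downward for knockout. Filled points are shared regions and open points regions of 1 list. Kit shows 4 filled pairs and 1 open knockout point, and Il1rl1 3 filled pairs and 2 open wild-type points.

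Kit (chromosome 5, 75574987 to 75656722) had 4 regions in both lists and a further one in the knockout list alone. Its start-site region (75574857 to 75575069) had summit pileups of 20 in wild type and 21 in knockout, with summits 4 bp apart and widths of 201 and 197 bp. A region inside the gene 5.03 kb from its start (75579812 to 75580223) had pileups of 22 and 26 and widths of 275 and 412 bp. One farther in (75624106 to 75624254) had 12 and 9, and an upstream region 70.9 kb before the gene (75503782 to 75504052) had 19 and 13. Before scaling 2 of the 4 shared regions were higher in each library, and after scaling (ratios of 0.963, 1.08, 0.688 and 0.627 in that order) 1 was higher in knockout and 3 in wild type. The upstream one was the only shared region of the 8 genes that was over 1.5 times higher in wild type after scaling (9.23% of all shared regions were). It was no longer assigned to Kit when the limit was 50 kb, when regions had to lie within 10 kb of the gene or when all gene types were considered.

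The knockout-only region of Kit (75633388 to 75633490) lay inside the gene 58.45 kb from its start, was 103 bp wide and had a pileup of 8. The wild-type list held no peak within 9168 bp of it. The wild-type list did call pileups as low as 6 among its 3112 peaks with a local background within 20% of that of the region (0.45 fragments), the local background being the depth expected there from the surrounding coverage.

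Il3ra (chromosome 14, 14345912 to 14355493), the alpha chain gene, had its regions close together at its 5′ end. The strongest (14345591 to 14345882), 30 bp before the gene interval, had a pileup of 22 in both lists and widths of 287 and 285 bp. The next (14346159 to 14346329) had pileups of 12 in wild type and 10 in knockout and widths of 112 and 163 bp. Only 44 bases further on, the knockout list held a separate peak of 122 bp with a pileup of 10 (14346374 to 14346495), which ended on the annotated start site. The nearest wild-type peak was 104 bp away, in the preceding region. The 2 lists thus shared the upstream edge of this cluster, and the knockout peaks extended further downstream, up to the annotated start site.

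The beta chain genes (Csf2rb2, chromosome 15, 78282507 to 78305721, and Csf2rb, 78325800 to 78351001) stand 20.1 kb apart. Between them lay 2 shared regions, at 78315047 to 78315308 with pileups of 14 in wild type and 13 in knockout, and at 78320878 to 78321088 with 11 and 12. By distance the first counted for Csf2rb2, from which it was 9326 bp, and the second for Csf2rb, from which it was 4712 bp. These 2 regions differed by 1 fragment each between the libraries.

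The region of Csf2rb2 on the far side of the gene (78278456 to 78278632), 3.88 kb beyond its 3′ end, had a pileup of 12 in wild type and 21 in knockout. Its ratio of 1.75 had an exact interval of 0.822 to 3.9 and was 1.6 after scaling. It was the only shared region of the 8 genes at least 1.5 times higher in knockout after scaling, where 9.59% of all shared regions were. The widths, 176 and 171 bp, and the summits, 6 bp apart, were nearly equal.

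The remaining 7 regions of the beta chain genes were each in 1 list, and all were between 100 and 110 bp wide. Over the start of Csf2rb2 lay a wild-type-only region (78305664 to 78305763, pileup 11), printed above, and over the lower end of Csf2rb a knockout-only one (78325797 to 78325906, pileup 9). Csf2rb2 further had knockout-only regions at 78299896 to 78299999 inside the gene (pileup 13) and at 78281137 to 78281244, 1263 bp beyond it (pileup 12). Csf2rb had a wild-type-only region inside the gene (78340162 to 78340261, pileup 8), and beyond it a knockout-only (78351937 to 78352038, pileup 13) and a wild-type-only region (78353387 to 78353486, pileup 9) 1348 bases apart. The pileup of 9 in the last equalled the lowest called in the knockout list at a similar background, and by q it ranked 3707 of 3952 wild-type-only regions. The other unshared regions of both genes lay above the lowest pileup called in the other list at a similar background. One of the knockout-only regions of Csf2rb2 was lost when the knockout list was reduced to the length of the wild-type list, and 1 wild-type-only region of Csf2rb when a −log10 q of at least 5 was required. The genes are close paralogues, reads were 50 bases long, and no source used here says how reads matching both genes were placed, so the split of peaks between them is uncertain.

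Il1rl1 (chromosome 1, 40404864 to 40465418), the IL-33 receptor gene, was shared at its strongest regions. At 40423974 to 40424473, inside the gene, the wild-type list had 1 peak with a pileup of 19 and the knockout list 2 peaks, the higher with a pileup of 24, and the bases under peaks were 334 and 459. At 40418562 to 40418836 the pileups were 14 and 16, and at 40399664 to 40399911, 4.95 kb before the gene, 8 and 10. All 3 were thus higher in knockout before scaling, by 1.26, 1.14 and 1.25 times in that order, and after scaling the ratios were 1.16, 1.05 and 1.15.

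Both unshared regions of Il1rl1 were wild-type-only and lay 1941 bases apart downstream of the strongest one, at 40427405 to 40427514 (pileup 12, 110 bp) and, over the printed start window well inside the annotated interval, at 40429456 to 40429557 (pileup 11, 102 bp). The knockout list had no peak within 2932 bp of the first or 4983 bp of the second. Their local backgrounds of 1.51 and 1.26 fragments were high, and at such backgrounds the lowest pileups called in the knockout list were 10 and 9. When peaks had to overlap reciprocally by 50%, or to have summits within 200 bp, Il1rl1 had 1 knockout-only region besides these 2. With −log10 q values of 4.88 and 4.8 both dropped out when at least 5 was required. Il1rl1 ends 133 bases before Il18r1, the IL-18 receptor gene, and no region lay in its second start window.

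Il1rap (chromosome 16, 26581509 to 26730128), the accessory chain gene, had the wild-type-only region of the set that ranked highest by q within its list. Its start-site region (26581583 to 26581764) had a pileup of 10 in both lists. The wild-type-only region (26597300 to 26597457), 15.87 kb inside the gene, had a pileup of 12 over a local background of 0.21 fragments, a width of 158 bp and a −log10 q of 14.6. By that value it was the 12th of 3952 wild-type-only regions, which places it among the top 0.304%, whereas the other 5 of the set ranked from 977 to 3707. The nearest knockout peak was the one at the start site, 15572 bp away. Of the 4002 knockout peaks with a similar background the weakest had a pileup of 5. This region stayed wild-type-only in each of the alternatives run. With its −log10 q of 14.6 and no knockout peak nearer than 15572 bp, none of them could have changed that class.

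Il4ra (chromosome 7, 125552271 to 125579474), the IL-4 receptor alpha chain gene, had 3 shared regions and a knockout-only one. Beyond its 3′ end (125581367 to 125581651) the pileups were 22 in wild type and 32 in knockout, the highest pileup of the set, and the widths 138 and 285 bp. Inside the gene (125561346 to 125561648) they were 20 and 21, and 28.9 kb upstream (125523063 to 125523359) 9 and 14, with widths of 179 and 297 bp. The scaled ratios were 1.33, 0.963 and 1.43. The upstream region was not counted for Il4ra within 10 kb of the gene or when all gene types were considered. The knockout-only region at the start (125552166 to 125552265) was 100 bp wide, the narrowest width in either list, and had a pileup of 13 over a background of 1.93 fragments. Its −log10 q of 4.64 left it out both with a limit of 5 and with lists of equal length.

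Il2rg (chromosome X, 101264385 to 101268255), the common gamma chain gene, had no region in either list. Its neighbours are close, Gm614 392 bases and Med12 5835 bases away. The nearest region (101274026 to 101274205), with a pileup of 9 in both lists, overlapped Med12 and lay 5771 bp from Il2rg. It was counted for Il2rg when gene intervals with 10 kb on each side were used. The next, knockout-only, lay 10207 bp away and nearest to Foxo4. Having no region was common: 10025 of the 21631 protein-coding genes had none.

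Across the 16 shared regions the libraries had similar values. Summit pileups ran from 8 to 22 with a median of 14 in wild type, and from 9 to 32 with a median of 15 in knockout, where the medians over all shared regions were 10 and 11. The knockout pileup was higher in 10, lower in 4 and equal in 2. After scaling, 7 of the 16 were above 1 (43.8%, interval 19.8 to 70.1), against 49.5% of all shared regions, and the median scaled ratio was 0.981. For all 16 the exact 95% interval of the ratio held the value of 1.09 found over all shared regions. At these pileups the intervals are wide, from 0.542 to 2.04 for the Kit start site, so smaller differences were not detectable at this depth.

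Widths likewise showed no common direction, and summit positions were compared by their distance only, without its direction. The bases under peaks had medians of 210 bp in wild type and 235 bp in knockout (176 and 190 bp over all shared regions), and the knockout peaks were wider in 8 of 16 (50.0%, interval 24.7 to 75.3), against 56.5% of all. The largest gains in width were 147 bp at the 3′ region of Il4ra, 137 bp at the inner Kit region and 125 bp at the inner Il1rl1 region. Summits of the lists lay a median of 45 bp and at most 75 bp apart, against a median of 29 bp over all shared regions.

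**Figure D3:**
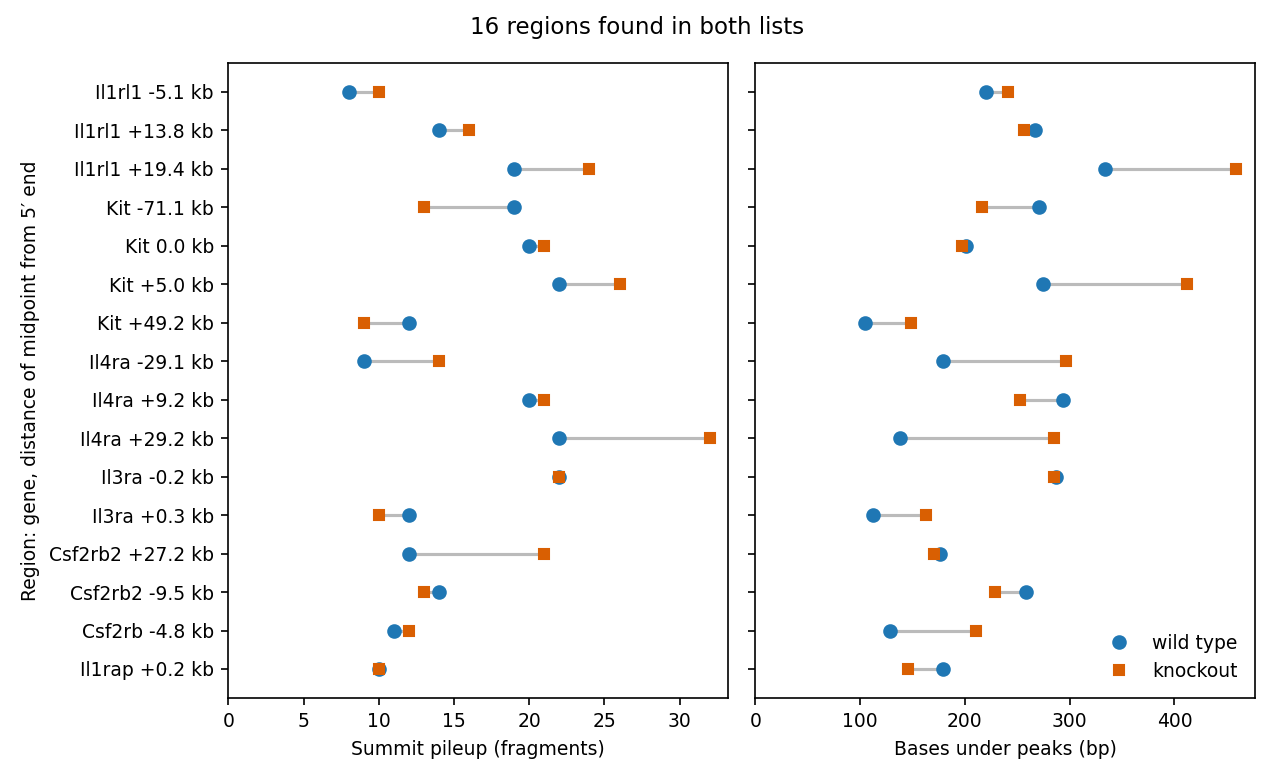
Summit pileup in fragments (left) and bases under peaks in bp (right) in the wild-type (circles) and knockout list (squares) for the 16 shared regions, named by gene and by the distance of their midpoint from the 5′ end. The region beyond Csf2rb2 (12 and 21) and the region beyond Il4ra (22 and 32) have the longest bars toward knockout, and the upstream Kit region (19 and 13) the longest toward wild type.

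Unshared regions of the 8 genes were narrow, and the local background was higher than over all regions under both the shared and the unshared ones. Of the 13, 11 were 110 bp or narrower (84.6%), against 49.2% of all unshared regions, and no peak of either list was under 100 bp. These 11 included 4 at Csf2rb and 3 at Csf2rb2, the paralogues between which the split of peaks is uncertain. The pileups of the 13 ran from 8 to 13, with medians of 11 for wild-type-only and 12 for knockout-only, where the median over all regions of each kind was 6. The median local background under them was 0.88 and 1.16 fragments, against 0.18 and 0.16 over all such regions. Under the 16 shared regions it was 0.64 in wild type and 0.66 in knockout, against 0.32 and 0.33 over all shared regions. The exceptions in width were the Il1rap region (158 bp) and the Il3ra region (122 bp). The part of the local background and of the smallest width called in these differences between the lists was not tested.

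**Figure D4:**
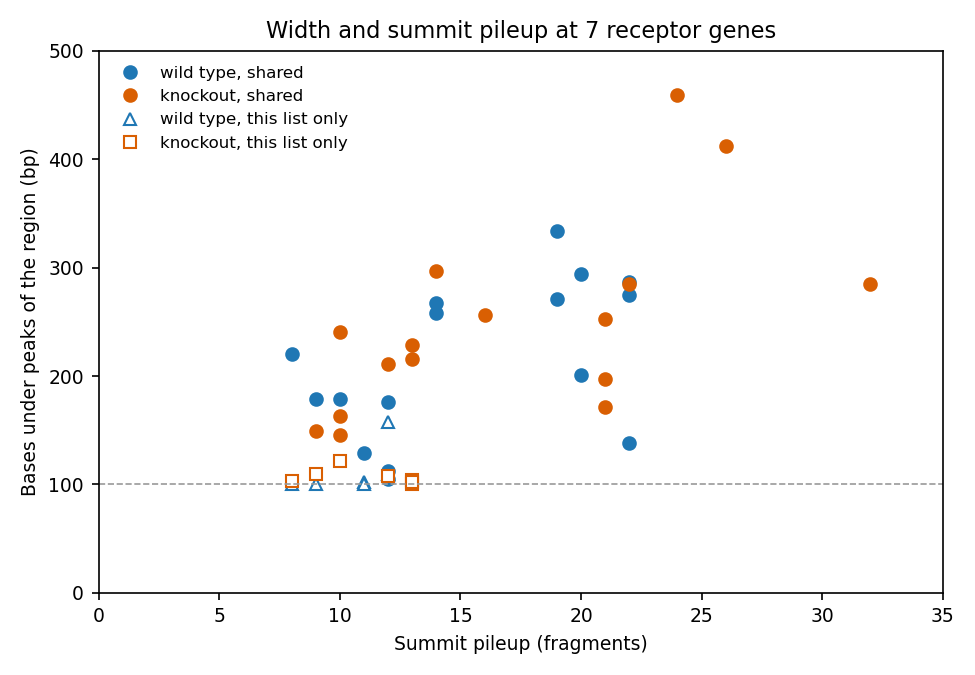
Bases under the peaks of a region (vertical axis, bp) against summit pileup (horizontal axis, fragments) for each region of 7 receptor genes in each list; filled points are shared regions and open points regions of 1 list, and the dashed line marks the narrowest peak of either list, 100 bp. The open points lie between pileups of 8 and 13 and close to the line, except the Il1rap triangle at 158 bp and the Il3ra square at 122 bp.

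The number of protein-coding genes with the same counts as a receptor gene ran from 15 for Il1rl1 to 10025 for Il2rg. Likeness was taken as equal counts of all 3 kinds of region, in the order shared, wild-type-only, knockout-only. The counts of Kit (4, 0 and 1) were those of 44 protein-coding genes, Kit included, among them Crlf2, the TSLP receptor gene, and Socs1, a feedback inhibitor of cytokine receptors. Those of Csf2rb2 (2, 1 and 2) were found in 54 genes, among them the adaptor Grb2, those of Il4ra (3, 0 and 1) in 101, among them the IL-2 receptor alpha gene Il2ra, and those of Il3ra (2, 0 and 1) in 273, among them Cbl, Il1rl2 and Il9r. Il1rap (1, 1 and 0) had the counts of 588 genes, among them Ifngr2 and Il1r1. Il1rl1 (3, 2 and 0) had those of 15 and Csf2rb (1, 2 and 2) those of 23, none of them among 75 listed genes of the same pathways. With 5 regions each, Kit, Csf2rb, Csf2rb2 and Il1rl1 were among the 853 genes that had 5 or more.

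The other genes of these pathways were 9 ligand, 34 receptor and 32 signalling genes, and their 187 regions were shared in 98 cases (52.4%), wild-type-only in 29 and knockout-only in 60. Of the unshared regions 67.4% were knockout-only (interval 56.7 to 77), against 62.3% over all regions. The ligand genes had 7 regions, of which 3 were shared and 4 knockout-only, and Kitl and Il33, which encode the ligands of Kit and ST2, had none. Il3, the IL-3 gene, had 1 knockout-only region. Other receptor genes had 34, 14 and 23, and 7 of the 34, among them Il13ra1, Il13ra2, Il2rb and Il15ra, had no region. Signalling genes had 61, 15 and 33, and all 32 had a region in at least 1 list. Over all 21631 protein-coding genes 10025 had no region. Of all regions 55.1% were shared, 16.9% wild-type-only and 28.0% knockout-only.

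Among these 75 genes the largest excess of knockout-only regions was at Lyn, a Src family kinase gene, with 4 knockout-only regions and no other (pileups of 7 to 10), 2 of them overlapping the gene. Socs3, a feedback inhibitor, had 1 shared and 3 knockout-only regions, and Jak1, a kinase used by the IL-4 receptor, 3 shared, 1 wild-type-only and 3 knockout-only. The excess of 2 at Jak1 was equalled at Il13, Ifnar1, Pdgfra, Gab2, Cblb and Cish, and Jak1 was taken as the gene with the most regions. In the other direction Il21r, the IL-21 receptor gene next to Il4ra, and Stat3 each had 1 shared and 2 wild-type-only regions. Csf2ra, the GM-CSF receptor alpha gene, had 6 regions, of which 2 were wild-type-only and 1 was knockout-only, a difference of 1 that other listed genes, such as Il10ra and Il1r1, shared. Of its unshared regions, a wild-type-only one at 61199529 to 61199628 on chromosome 19 was followed directly by a knockout-only one at 61199676 to 61199775.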

How the data were processed

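ATAC-seq libraries of 1 wild-type and 1 DNMT3A-KO culture gave single reads of 50 bp, about 10 M of them per the labels' protocols. The submitters' processing notes name Trimmomatic, Bowtie2, MACS2 and the builds mm10 and GRCm38. No source used here gives versions, parameters or a shift toward the Tn5 cut; a shift would move peak edges by a few bases.

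For each sample the authors deposited 1 peak list, which holds per peak a score, the enrichment as a fold (ratio), and p and q as −log10 values. In 100% of peaks the deposited score equalled −log10 q multiplied by 10. From the deposited fold and −log10 p the summit pileup (a whole number) and its local background were computed for 100% of 36854 peaks (tolerance 0.001 in −log10 p, pseudocount 1), on the assumption of MACS2's Poisson p. The pileups and −log10 q values are the authors' own or follow from them, and q ranks peaks within a list only.

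Peaks sharing at least 1 bp were merged, and regions assigned to the nearest protein-coding interval (RefSeq, GRCm38.p6) within 100 kb, equally near genes sharing a region. Where a list held several peaks in a region, their widths were summed and the highest pileup used. Exons and introns were not resolved. The start windows of 7 members were matched by symbol. Python 3.11.15, NumPy 2.4.6 and SciPy 1.17.1 were used, and the steps were tested on simulated data.

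No test was possible with a single library of each genotype. Intervals are exact binomial at 95% and cover counting error only. The members and lists were chosen with earlier results of these data known. The genes named were the 8 members with all their regions, their neighbours, up to 3 pathway genes per direction in which the numbers of unshared regions of each kind differed most, up to 3 pathway genes with a member's counts, and cell type markers; Il3, Kitl, Il33 and genes without a region were added after their values were seen. Of the marker lists, basophil genes had a region in 4 (wild type) and 3 (knockout) of 5 genes, neutrophil in 1 and 1 of 5, macrophage in 3 and 3 of 5, T cell in 1 and 1 of 3 and B cell in 0 and 1 of 3.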

Additional observations from a re-analysis of the deposited data

How the results depend on the processing

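No paired analysis was possible because there was a single library of each genotype. The alternatives were a reciprocal overlap of 50%, summits within 200 bp, a limit of 5 on −log10 q, lists of equal length, gene intervals with 10 kb on each side, all gene types, a limit of 50 kb, no chromosome X, unscaled pileups and, chosen after seeing the data, a limit of 250 kb. None moved a summary value of the 8 genes outside its interval. These intervals are wide and the alternatives recount mostly the same peaks, so staying inside them says little about stability. Leaving out chromosome X could not change a value of the 8 genes, because Il2rg, the only member on it, had no region. For the 75 pathway genes the reciprocal overlap lowered the share of regions found in both lists to 42.2%, as it lowered that of all regions to 45.3%; their other alternatives stayed within the interval. For the 8 genes the share found in both lists ran from 48.4% to 64.0%, and the knockout-only share of unshared regions from 45.5% to 66.7%. Its balance turned to 5 knockout-only against 6 wild-type-only with lists of equal length, and 6 against 3 remained with the limit of 5 on −log10 q. The share of shared regions with a scaled ratio above 1 ran from 35% to 50.0%, and was 62.5% for unscaled pileups. By gene, the reciprocal overlap split Il4ra into 5 regions, 2 of them shared, and the 250 kb limit gave Kit 8 shared and 3 knockout-only regions and Il3ra 2 and 2. Pileups of 8 to 32 fragments limit what could be seen at single regions.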

Other observations

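Kit stands in a long stretch without other protein-coding genes, 377 kb from Pdgfra and 276 kb from Kdr, and upstream sequence of Kit is known to hold distal elements used in mast cells. The limit of 100 kb left out 6 further regions there, 4 shared and 2 knockout-only, which were examined after the data were seen. The strongest (chromosome 5, 75460541 to 75460851), 114 kb upstream, had summit pileups of 23 in wild type and 24 in knockout and widths of 257 and 304 bp, against 20 and 21 at the start site of Kit. Its local backgrounds, 0.94 and 1.07 fragments, were lower than those at the start site, 2.25 and 2.18. Shared regions 142 kb (75432939 to 75433205, pileups 13 and 14) and 145 kb upstream (75429446 to 75429573, 11 and 7) and 135 kb downstream (75791893 to 75792093, 7 and 5) followed. For Il3ra the same limit left out 1 knockout-only region, 160 kb away with a pileup of 5.

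Between the first of these lay a knockout-only region 124 kb upstream of Kit (75450635 to 75450899), 265 bp wide, with a pileup of 14 and a −log10 q of 14.1. By that value it was the 129th of 6541 knockout-only regions, in the top 1.97%, where the knockout-only region inside Kit was the 4397th. The nearest wild-type peak was 9642 bp away, and the wild-type list called pileups as low as 6 at a similar background. A second knockout-only region 109 kb upstream (75465876 to 75465989) was weak, with a pileup of 7. Of the knockout-only regions assigned to the 8 genes with the 250 kb limit, the one 124 kb upstream of Kit ranked highest by q. Of the wild-type-only ones the region inside Il1rap ranked highest, and neither has a replicate.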
